A study of Mus musculus with 2 samples.

Results

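Genes that mark mature circulating neutrophils were examined in splenic RNA of APAP-intoxicated mice and of vehicle-treated mice (ctrl). The list held 10 names, Csf3r, Retnlg, Mxd1, Fpr1, Fpr2, Stfa2l1, Stfa3, BC100530, Ly6g and Padi4, and its members were taken as the rows of the deposited count table that carry 1 of these names. Rows were found for 9 of the 10 genes among 22791 genes in all. BC100530 had no row, neither by its symbol nor by its identifier ENSMUSG00000071561, and no value is given for it. Male wild-type C57BL/6J mice were fasted overnight and received either APAP at 300 mg/kg or its vehicle, 0.9% NaCl, by intraperitoneal injection, and spleens were taken after 30 h. RNA of the mice of a group was pooled in equal shares, the APAP pool holding more mice than the ctrl pool, and 1 library per pool was sequenced from the 3′ ends of polyadenylated RNA by massive analysis of cDNA ends (MACE). With 1 library per group there is no replicate check, and all intervals are 95% intervals of counting error.

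Neutrophils are made in bone marrow and, in the mouse, also in the red pulp of the spleen. Promyelocytes transcribe the proteins of primary granules, myelocytes and metamyelocytes those of secondary and tertiary granules, and the mature cells that enter blood have largely switched to receptors, signalling proteins and cytosolic proteins. The listed genes are taken here as markers of this last phase, but they are not confined to it. Csf3r encodes the receptor for granulocyte colony-stimulating factor, Fpr1 and Fpr2 encode receptors for formylated peptides from bacteria and mitochondria, and Ly6g encodes the surface antigen by which mouse neutrophils are commonly sorted. Mxd1 encodes a partner of MAX that opposes MYC, Padi4 a peptidylarginine deiminase that citrullinates histones, and Retnlg a secreted protein of the resistin family. Stfa2l1, Stfa3 and BC100530 belong to the stefin A genes, which encode cytosolic inhibitors of cysteine proteases.

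Csf3r, Fpr1, Mxd1 and Ly6g differed between the libraries by less than their counting error. Retnlg was higher in APAP beyond it, and Fpr2 lay at its edge. The sum of 5 stefin genes, of which Stfa1, Stfa2 and Cstdc4 are not members, was also higher in APAP beyond counting error. The library totals were 2890947 counts for APAP and 2735788 for ctrl, and ratios are APAP over ctrl after division by DESeq2 size factors, which amounts to a divisor of 1.11. A gene met the size rule when its counts summed to 20 or more, when it differed 2-fold or more upwards or downwards, and when its interval left out 1. None of the 7 members with at least 20 counts met it, against 1.39% of all 12929 genes with 20 counts as higher in APAP and 1.68% as lower. An interval above 1 without regard to size was found for Retnlg and Fpr2, that is for 2 of 7 members, against 9.13% of all genes. No member had an interval below 1, against 6.57% of all genes. A ratio above 1 was found for 6 of the 7, against 53.2% of all genes. The median log2 ratio over these 7 members was 0.20 and over all 12929 genes 0.02. It was 0.78 when the 2 members under 20 counts were included, with Stfa3 at its lower bound. A member with few counts in ctrl reaches 20 counts more easily when it is high in APAP, so the median over 7 members and their counts serve as a description only.

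**Figure D1:**
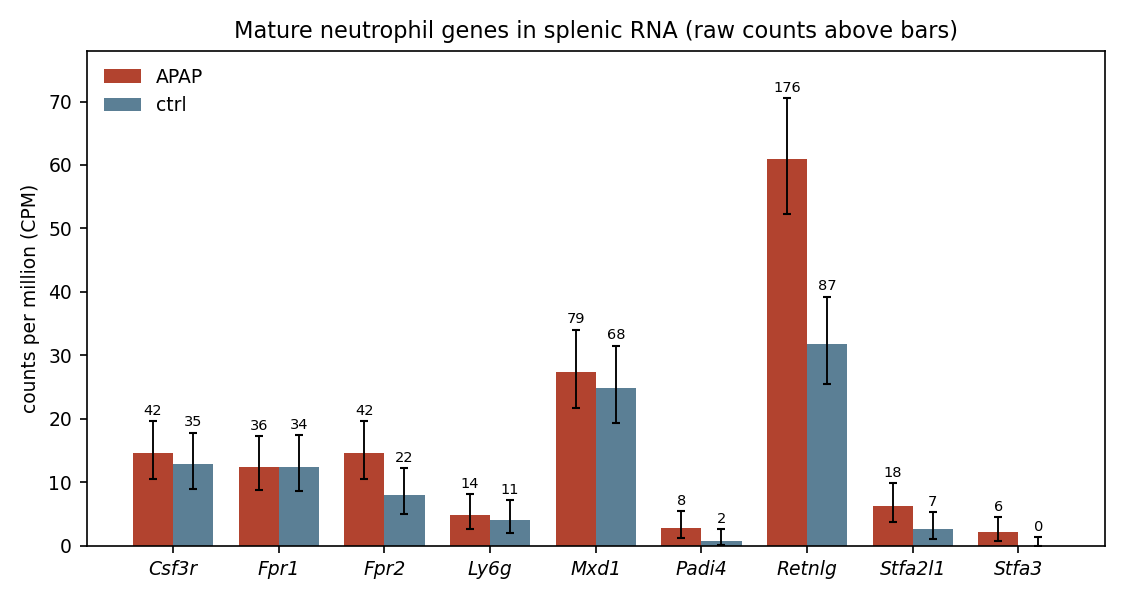
CPM (counts scaled to equal library totals, y axis, linear from 0) of the 9 measured genes, with the APAP library left of the ctrl library for each gene, raw counts above the bars and exact 95% Poisson intervals as error bars. Retnlg stands highest in both libraries with 176 counts in APAP and 87 in ctrl, while the bars of Csf3r, Fpr1, Ly6g and Mxd1 lie within each other's intervals.

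Csf3r had 42 counts in APAP and 35 in ctrl, or 14.5 and 12.8 CPM. CPM is the count scaled to equal library totals, and since MACE yields reads from 1 end of a transcript, it is not divided by gene length. The ratio of Csf3r was 1.08 (0.673 to 1.74). Given 35 counts in ctrl, 60 counts in APAP, a ratio of 1.54, would have been needed for an interval above 1, so that a smaller difference was not detectable at this depth.

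The formyl peptide receptor genes, which lie head to head on chromosome 17 with 3884 bases between their starts, had unlike ratios. Fpr2 had 42 counts in APAP and 22 in ctrl (14.5 and 8.04 CPM), a ratio of 1.72 (1.003 to 3.02). Fpr1 had 36 counts in APAP and 34 in ctrl (12.5 and 12.4 CPM), a ratio of 0.953 (0.580 to 1.57), whose direction was turned to 1.002 by scaling to library totals. In APAP both receptors had similar counts, and the lower value was that of Fpr2 in ctrl. The intervals of both ratios overlap, and that of Fpr2 touched 1 so closely that it included 1 with 4 of 7 other scalings (lower ends from 0.983 with TMM factors). The coding sequences of the pair are 66.4% identical. No identical run of more than 9 bases was found between the last 200 bases of their transcripts, where MACE reads originate.

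Ly6g was near the lower end of what could be measured, with 14 counts in APAP and 11 in ctrl (4.84 and 4.02 CPM) and a ratio of 1.15 (0.483 to 2.79). With 11 counts in ctrl, 26 counts in APAP or a ratio of 2.13 would have been needed for an interval above 1. Ly6c1 (421 counts in APAP and 265 in ctrl) and Ly6c2 (473 and 421), genes of the same family, were far more abundant, and Ly6i (18 and 14) was about as scarce. Ly6g shares a run of 42 identical bases with Ly6c1 and with Ly6c2 and of 49 with Ly6i in the last 200 bases of the transcripts. Reads within these runs could be assigned to either gene, which makes the count of Ly6g uncertain. Of 10 measured genes of the Ly6 list with 20 counts, Ly6g included, 7 had a ratio above 1, and Cd177, the gene of a neutrophil surface protein, alone met the size rule (32 counts in APAP and 10 in ctrl, ratio 2.88, 1.38 to 6.57).

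Mxd1 was the second most abundant member, with 79 counts in APAP and 68 in ctrl (27.3 and 24.9 CPM). Its ratio of 1.05 (0.746 to 1.47) lay closest to 1 among the members, together with that of Fpr1. Of 10 genes of the MAX network with 20 counts, Mxd1 included, 7 had a ratio above 1 and 3 below. Mlx, which encodes a MAX-like partner of other proteins, alone met the rule as higher, with 19 counts in APAP and 6 in ctrl (2.85, 1.09 to 8.72). Padi4 had 8 counts in APAP and 2 in ctrl (2.77 and 0.731 CPM), and the ratio of 3.60 came with an interval of 0.718 to 34.8. For Padi4, 11 counts in APAP would have been needed for an interval above 1. Padi2, the most abundant gene of the same family, had 34 counts in APAP and 36 in ctrl (0.850, 0.516 to 1.40).

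Retnlg was the most abundant member and gave 41.8% of the members' summed counts in APAP and 32.7% in ctrl. It had 176 counts in APAP and 87 in ctrl (60.9 and 31.8 CPM), a ratio of 1.82 (1.40 to 2.38). Retnlg thus lay above 1 beyond counting error under all scalings tried, with ratios from 1.79 to 1.94, but below the 2-fold limit of the size rule. Other resistin genes did not share this direction. Retnla, a product of alternatively activated macrophages, met the rule as lower with 9 counts in APAP and 27 in ctrl (0.300, 0.124 to 0.657). Retn, the resistin gene of adipocytes, had 22 counts in APAP and 26 in ctrl (0.762, 0.411 to 1.40). Retnlg and Retnla are 71.3% identical in their coding sequence, with no identical run above 21 bases in the last 200 bases of their transcripts.

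**Figure D2:**
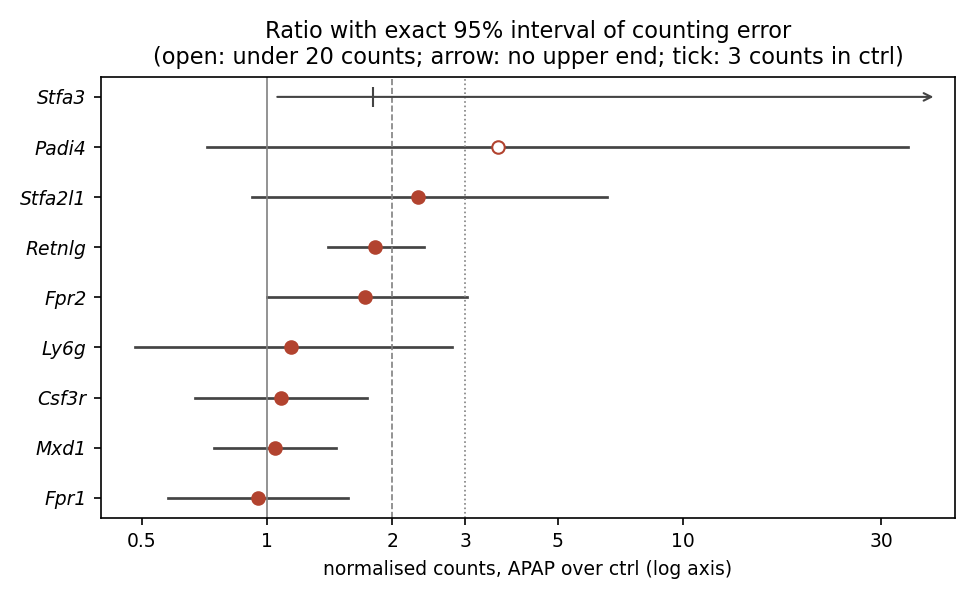
Ratio of normalised counts of APAP over ctrl (x axis, log scale) with exact 95% intervals for the 9 measured genes. Filled points have at least 20 counts, the open point (Padi4) has 10, the arrow of Stfa3, which has no upper end, starts at the lower end of its interval of 1.06 with a tick at 1.80 for 3 counts in ctrl, and vertical lines mark ratios of 1, 2 and 3.

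The stefin A genes lie together on chromosome 16, where the 6 genes considered here span 299 kb. In mm10 Stfa2l1 is annotated at chr16:36156811-36161953 and Cstdc4 at chr16:36184212-36188111, both on the plus strand, and Stfa1 at chr16:36276951-36285373 on the same strand. BC100530 (chr16:36359382-36367748), Stfa2 (chr16:36403992-36408457) and Stfa3 (chr16:36450537-36455392) follow on the minus strand. Each of these genes has 3 exons in its longest coding transcript. Their start regions are alike, and the 100 bases upstream of the RefSeq start are given below to show the shared blocks, with GAGGAGGAG and TTTAAAA in capitals. The window of BC100530 is that of Cstdc5, the RefSeq gene at the same locus.
Stfa2l1 (chr16:36156711-36156810, plus strand): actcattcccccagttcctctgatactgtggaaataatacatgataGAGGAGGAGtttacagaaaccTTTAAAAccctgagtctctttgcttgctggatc
Stfa3 (chr16:36455393-36455492, minus strand): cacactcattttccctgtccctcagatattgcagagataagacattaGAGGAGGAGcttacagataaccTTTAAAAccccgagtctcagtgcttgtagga
BC100530 (chr16:36367571-36367670, minus strand): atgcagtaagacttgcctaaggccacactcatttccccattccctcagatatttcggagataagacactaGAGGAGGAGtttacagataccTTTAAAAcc
Cstdc4 (chr16:36184112-36184211, plus strand): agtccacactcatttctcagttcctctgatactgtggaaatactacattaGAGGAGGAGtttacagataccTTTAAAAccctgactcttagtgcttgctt
Stfa1 (chr16:36277048-36277147, plus strand): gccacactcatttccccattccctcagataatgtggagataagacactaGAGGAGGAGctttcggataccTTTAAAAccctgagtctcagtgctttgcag
Stfa2 (chr16:36408364-36408463, minus strand): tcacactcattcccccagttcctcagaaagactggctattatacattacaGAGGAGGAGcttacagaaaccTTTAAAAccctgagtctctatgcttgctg
Both blocks occurred in this order on the gene's strand in all 6 windows, with their starts within the searched range of 20 to 23 bases apart. Of 32851 RefSeq windows of 300 bases (250 before to 50 after a start, build GRCm38.p6), 7 held this arrangement, and all 7 belonged to cystatin genes on chromosome 16, Cstdc3 being the seventh. Taken singly and on either strand, GAGGAGGAG was found in 3.37% and TTTAAAA in 8.74% of all windows. The blocks and their distance were chosen after the sequences had been seen.

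The list of the stefin A cluster held 18 names, of which 5 had a row, and all 5 had more counts in APAP. Stfa1, Stfa2 and Stfa3 had counts in APAP alone, so the shared direction is a description only. Stfa2l1 had 18 counts in APAP and 7 in ctrl (6.23 and 2.56 CPM), a ratio of 2.31 whose interval included 1 (0.922 to 6.56). Stfa3 had 6 counts in APAP and 0 in ctrl. A count of 0 allows up to 3 counts, or 1.10 CPM in ctrl, so that Stfa3 was at least 1.80-fold higher in APAP when its 6 counts there are taken as exact. With the counting error of both libraries its interval began at 1.06. Of the relatives outside the list, Cstdc4, a further gene of the cluster, had 11 counts in APAP and 1 in ctrl (9.90, 1.44 to 426). Stfa1 had 3 counts in APAP and 0 in ctrl, and Stfa2 had 1 and 0, values too low for a ratio. Summed over the 5 genes there were 39 counts in APAP and 8 in ctrl, a ratio of 4.39 (2.02 to 10.9). Apart from Stfa2l1 each gene had at most 1 count in ctrl. Counts per gene are uncertain in this cluster, since the copies share sequence. The following stretches, the last 60 coding bases before the stop codon in the GENCODE M21 transcripts (mm10), show how near the copies are. Capitals mark bases that differ from Stfa2l1.
Stfa2l1 (chr16:36161810-36161869, plus strand): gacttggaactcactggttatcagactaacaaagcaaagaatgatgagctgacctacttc
Stfa2 (chr16:36404030-36404089, minus strand): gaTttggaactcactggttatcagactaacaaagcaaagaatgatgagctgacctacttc
Stfa3 (chr16:36450612-36450671, minus strand): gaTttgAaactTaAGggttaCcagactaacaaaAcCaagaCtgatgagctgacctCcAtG
BC100530 (chr16:36359463-36359522, minus strand): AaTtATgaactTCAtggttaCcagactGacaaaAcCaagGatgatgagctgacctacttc
Stfa1 (chr16:36285233-36285292, plus strand): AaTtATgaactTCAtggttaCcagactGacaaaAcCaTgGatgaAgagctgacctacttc
Cstdc4 (chr16:36187977-36188036, plus strand): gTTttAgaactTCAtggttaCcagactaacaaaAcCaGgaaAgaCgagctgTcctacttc
Stfa2 differed from Stfa2l1 at 1 of these 60 bases, Stfa3 and BC100530 each at 12, Cstdc4 at 13 and Stfa1 at 14. Over the whole coding sequence Stfa2 and Stfa2l1 were 96.4% identical and shared a run of 63 bases in the last 200 bases of their transcripts, and BC100530 and Stfa1 were 97.9% identical with a run of 96 bases. Stfa3 was 81.6% identical to Stfa2l1, and no run above 14 bases was shared at their transcript ends. Whether reads of Stfa2l1 and Stfa2, or of BC100530 and Stfa1, were exchanged or discarded was not tested. The sum does not depend on how reads were divided among the 5 measured genes, but reads given to genes without a row, or discarded, are not in it.

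**Figure D3:**
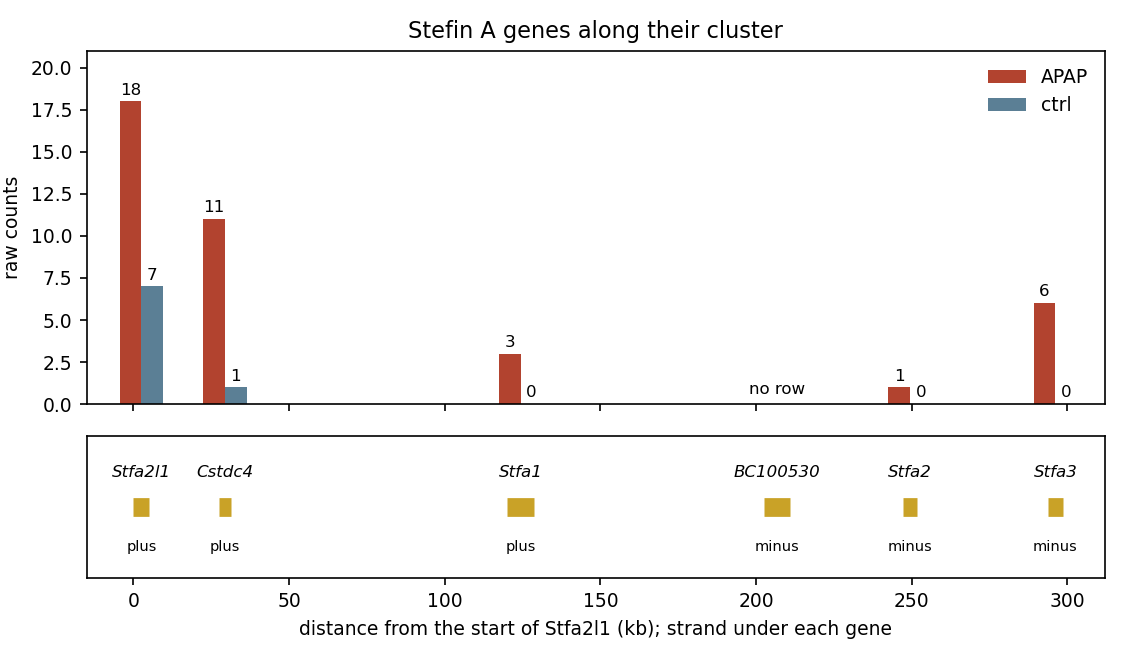
Raw counts (upper panel, y axis, APAP left of ctrl) of the stefin A genes placed along their cluster (lower panel, x axis in kb from the start of Stfa2l1, strand below each gene). Stfa2l1 has 18 and 7 counts, Cstdc4 11 and 1, Stfa1 3 and 0, Stfa2 1 and 0 and Stfa3 6 and 0 in APAP and ctrl, and BC100530 has no row.

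Targets of stefins and other inhibitors of the same kind differed by smaller ratios. Among cysteine cathepsins, which stefins inhibit, 4 of 5 genes were above 1, 3 had an interval above 1 and none met the size rule, for example Ctsb (4562 counts in APAP and 3065 in ctrl, ratio 1.34, 1.28 to 1.40) and Ctss (2097 and 1570, ratio 1.20, 1.13 to 1.28). Of the other cystatins, Cst3 (3267 counts in APAP and 2795 in ctrl) had a ratio of 1.05 and Cstb (373 and 304) of 1.10, with none of 3 genes meeting the rule.

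The remaining members lie at separate loci. Csf3r (chr4:126024550-126044440, plus strand) has 17 exons and Padi4 (chr4:140745865-140774236, minus strand) 16 exons in the longest coding transcript. Mxd1 lies at chr6:86647042-86669161 on the minus strand, Ly6g at chr15:75155240-75159126 on the plus strand and Retnlg at chr16:48872621-48874496 on the plus strand. Fpr1 (chr17:17876471-17883940) is on the minus strand and Fpr2 (chr17:17887824-17893952) on the plus strand. No exon of another GENCODE gene overlaps an exon of a measured member except at Fpr2, which shares exon bases with Fpr3, a gene without a row. Whether reads in these shared bases were counted for Fpr2 was not tested. Within an intron of Mxd1 lies the transcript Gm44292 on the same strand (8 counts in APAP and 17 in ctrl).

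The promoter windows of the 7 members outside the stefin cluster were searched on both strands for letters bound by factors of granulocyte development and for the TATA box. GAGGAA, the core of PU.1 sites, was found in 3 of 7 (Csf3r, Fpr2 and Ly6g), against 28.3% of all windows. TTGCNNAA, a form of the C/EBP site, was found in 2 of 7 (Retnlg and Ly6g), against 10.8%, and TATAAA in 4 of 7 (Fpr1, Fpr2, Ly6g and Padi4), against 13.6%. CACGTG, the E-box to which MAX dimers such as that of Mxd1 bind, was found in Padi4 alone, against 7.15%. The windows below, 100 bases upstream of the RefSeq start with these matches in capitals (TTCCTC being GAGGAA on the other strand), are those in which a match lay within 100 bases of the start. For Ly6g the first of 2 RefSeq starts is shown, and the window of the other, which overlaps it, holds the same PU.1 core.
Csf3r (chr4:126024559-126024658, plus strand): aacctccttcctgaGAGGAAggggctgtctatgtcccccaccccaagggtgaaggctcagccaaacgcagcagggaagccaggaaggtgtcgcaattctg
Fpr2 (chr17:17887724-17887823, plus strand): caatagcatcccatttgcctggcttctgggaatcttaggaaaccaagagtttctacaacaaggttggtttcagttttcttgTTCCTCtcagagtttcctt
Ly6g (chr15:75155161-75155260, plus strand): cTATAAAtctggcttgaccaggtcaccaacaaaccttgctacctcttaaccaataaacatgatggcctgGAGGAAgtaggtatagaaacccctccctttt
Padi4 (chr4:140774204-140774303, minus strand): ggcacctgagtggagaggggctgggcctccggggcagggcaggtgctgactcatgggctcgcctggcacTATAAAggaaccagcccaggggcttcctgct
Matches of these short motifs are descriptions of the letters. TATAAA lay at offset -31 from the start in Padi4 and at -99 in Ly6g. Ly6g also holds a PU.1 core in the window shown, as do Csf3r and Fpr2 in theirs. These 4 genes had ratios between 1.08 and 3.60 with intervals that included 1 or, for Fpr2, began at 1.003.

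The members as a sum made up 421 counts in APAP and 266 in ctrl, which were 0.0146% (Wilson interval 0.0132 to 0.0160) and 0.00972% (0.00862 to 0.0110) of all counts. The ratio of the sums was 1.42 (1.22 to 1.67), and 1.23 (1.01 to 1.502) without Retnlg. Without Retnlg and the stefin genes, 221 counts in APAP stood against 172 in ctrl, and the ratio of 1.16 (0.943 to 1.42) included 1. The receptors Csf3r, Fpr1 and Fpr2 together had 120 counts in APAP and 91 in ctrl (1.19, 0.896 to 1.58).  In a bulk sample, more cells of a type and more RNA per cell cannot be told apart.

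Other genes of neutrophils more often met the size rule, which is harder to meet with few counts. Stfa2l1, with 25 counts and a ratio of 2.31, would have needed a ratio of 2.57. Of 26 further mature neutrophil genes with 20 counts, 23 were above 1 and 3 below, and the median log2 ratio was 0.78, against 0.20 for the members. The members' median depended on the minimum count, being 0.49 with at least 10 counts and 0.78 with none. The median of the further genes was not computed at these other minimums. The size rule was met by 8 of them, all higher in APAP. The alarmin genes S100a8 and S100a9, which are abundant in cells from the myelocyte onwards, together had 8575 counts in APAP and 3229 in ctrl (2.39, 2.29 to 2.49). The upper ends of the intervals of Csf3r, Fpr1 and Mxd1 (1.74, 1.57 and 1.47) lay below the lower ends of S100a8 (2.32) and S100a9 (2.18). The other 6 measured members did not stand apart from them in this way. Their upper ends were 2.38 for Retnlg, 2.79 for Ly6g, 3.02 for Fpr2, 6.56 for Stfa2l1 and 34.8 for Padi4, and Stfa3 had none. Trem3, a myeloid receptor gene, had 32 counts in APAP and 4 in ctrl (7.20, 2.55 to 28.0), and Lrg1 413 and 102 (3.64, 2.93 to 4.57). Cxcr2, the chemokine receptor by which mature neutrophils leave the marrow and a further marker of the circulating cell, had 23 counts in APAP and 11 in ctrl (1.88, 0.881 to 4.28), and is named here after its value was seen.

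Genes of earlier stages were also more often past the rule. Among secondary and tertiary granule genes 8 of 13 were above 1 and 5 below, 6 met the rule as higher, and the median was 0.82. Among primary granule and promyelocyte genes 9 of 12 were above 1 and 3 below, 5 met the rule as higher, and the median was 0.80. In each of these lists 1 gene had an interval below 1. The members' summed counts were 8.35% of those of the secondary and tertiary granule genes in APAP and 8.95% in ctrl, and 39.9% of those of the primary granule and promyelocyte genes in APAP against 38.2% in ctrl. Such sums follow the most abundant genes of a list. The secondary and tertiary list had most ctrl counts in Cyba (1739 in APAP, 1455 in ctrl, ratio 1.08) and Cybb (539, 494, 0.982). The primary list had most in Nkg7 (197 in APAP, 230 in ctrl, ratio 0.771), its gene with an interval below 1. The near-equal percentages thus do not show that the members kept pace with the other granule genes. The summed ratio was 1.53 for secondary and tertiary granule genes, against a median ratio of 1.77. For primary granule and promyelocyte genes it was 1.36, against 1.75. Against the further mature neutrophil genes, with S100a8 and S100a9 among them, the members' sum was 3.33% in APAP and 4.49% in ctrl. Each list was put together with earlier results of these libraries known, and no test of the difference between lists was made.

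**Figure D4:**
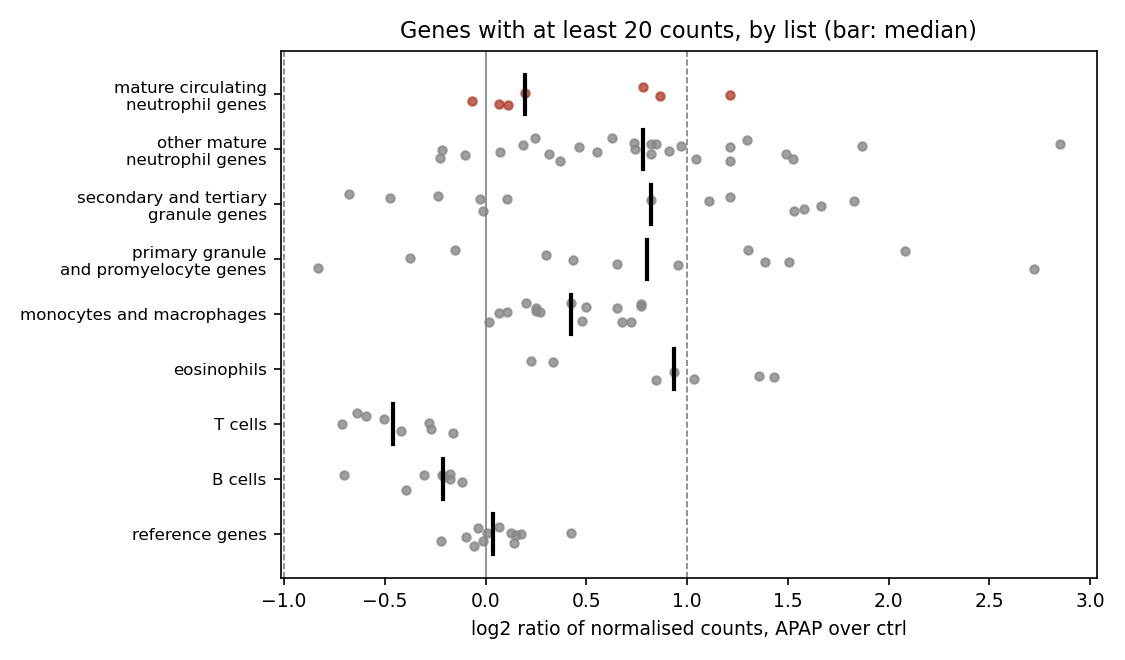
Log2 ratio of APAP over ctrl (x axis) of each gene with at least 20 counts in the members' list, in other neutrophil lists and in lists of other cell types, with the median of each list as a bar and ratios of 2 as dashed lines. The median of the members is 0.20, against 0.78 for further mature neutrophil genes, 0.82 and 0.80 for granule genes and -0.46 for T cell genes.

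Receptor and signalling genes of granulocyte and granulocyte-macrophage colony-stimulating factor, Csf3r included, were above 1 in 9 of 12 cases with 20 counts, with a median log2 ratio of 0.11. Only the C/EBP factor genes Cebpe (22 counts in APAP and 3 in ctrl, ratio 6.60, 1.98 to 34.4) and Cebpd (139 and 53, ratio 2.36, 1.71 to 3.30) met the rule among them. Csf2, the gene of the second factor, had 0 counts in APAP and 1 in ctrl, and Csf3, the ligand gene of Csf3r, had no row. Of 4 genes of endogenous formyl peptide receptor ligands with 20 counts, 3 had an interval above 1 and 1 an interval below 1. Camp, the cathelicidin gene (528 counts in APAP and 220 in ctrl, ratio 2.16, 1.84 to 2.54), and Saa3, a serum amyloid A gene of macrophages (26 and 6, ratio 3.90, 1.57 to 11.6), met the rule as higher. Saa1, the serum amyloid A gene of hepatocytes, met it as lower (7 and 24, ratio 0.263, 0.0955 to 0.628).

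When zero counts were replaced by 1 and a more than 3-fold difference was required without a minimum count, 2 of 9 members, Padi4 and Stfa3, were higher in APAP, against 2.40% of all 22791 genes. None was lower, against 3.74%. Both members had at most 10 counts over the 2 libraries, and none with at least 20 counts passed this threshold.

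Other cell types of the spleen moved as well. Fpr1, Fpr2 and Mxd1 are also transcribed in monocytes and macrophages, and of 15 genes of those cells all were above 1 and 11 had an interval above 1, with a median log2 ratio of 0.42 and summed levels of 5511 CPM in APAP and 4168 CPM in ctrl. None of these 15 genes was at 0 in either library. All 7 eosinophil genes with 20 counts were above 1 as well (median 0.93), and Siglecf, a surface marker of that cell, had 3 counts in APAP and 0 in ctrl. All 8 T cell genes and all 8 B cell genes were below 1 (medians -0.46 and -0.21). All 16 acinar genes of the pancreas, a tissue that adjoins the spleen, were lower in APAP, with a sum of 2.12% of counts in APAP and 6.97% in ctrl. Library totals without these genes gave ratios of 1.82 for Retnlg and 1.72 for Fpr2. The part of monocytes, macrophages and eosinophils in the members' values was not tested. The median of 12 reference genes was 0.04.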

How the data were processed

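Splenic RNA pools of APAP-treated and vehicle-treated mice were compared, with 1 MACE library each. The authors removed duplicates by unique molecular identifiers, trimmed with cutadapt, clipped poly(A) tails, mapped to mm10 and quantified with HTSeq, and DESeq2 was named. Not given in the sources used here were versions, aligner, annotation, strand setting and the treatment of reads with several hits. The raw counts deposited by the authors were used for all results. Columns deposited as TPM hold CPM (largest difference 5.46e-12), and a normalised signal deposited by the authors is the count over the DESeq2 size factor. Another 3 columns with the authors' means were left out.

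Size factors came from DESeq2 1.42.0 (R 4.3.3), and alternatives from edgeR 4.0.16. Ratios carry exact 95% intervals from the Clopper-Pearson interval of the APAP share of a gene's counts (Python 3.11.15, scipy 1.17.1, statsmodels 0.14.6, Biopython 1.88). They cover counting error only, without variation between mice, pools or preparations, and no p-value is given. A tolerance of 1e-09 was used for ratios at a threshold. Library totals were 2890947 counts for APAP and 2735788 for ctrl, so that a count of 0 allows 1.04 and 1.10 CPM. Loci were taken from GENCODE M21 and promoter windows from RefSeq (GRCm38.p6), in which 9 of 10 members were found by symbol. Members and lists were chosen with earlier results of these data known. All members are named. From other lists up to 4 genes meeting the size rule were to be named, ordered by the distance of their interval from 1, or else the 2 with the most counts. For the granule, monocyte and macrophage, eosinophil, T cell, B cell, erythroid, pancreas and reference lists no gene is named by this rule. Siglecf, Csf2, Cyba, Cybb, Nkg7 and some relatives of the members are named outside it. Other scalings, minimum counts, ratio limits and the summed stefin cluster were tried. A gene of the release and homing list that this rule would name is not reported here.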

Additional observations from a re-analysis of the deposited data

How the results depend on the processing

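Scaling moved every ratio by the same factor, between -0.03 and 0.09 on the log2 scale. Under it all ratios of single members and the summed ratio stayed within their counting intervals, and the median log2 ratio ranged from 0.17 to 0.28. The median was 0.49 with at least 10 counts, 0.78 with no minimum and 0.11 with at least 50. The ratio of Fpr1, whose interval included 1, ranged from 0.934 to 1.01. The count of members meeting the size rule was 0, but 1 with no minimum count (Stfa3). It was 2 at a ratio of at least 1.5 (Retnlg and Fpr2). With the stefin genes summed it was 1, but that sum includes Stfa1, Stfa2 and Cstdc4, which are not members. Of 2 members past the 3-fold threshold, 1 was left with at least 10 counts and 0 with at least 20 or 50. Of 2 members with an interval above 1, 1 (Retnlg) was left with TMM, upper quartile or DESeq2 factors from protein-coding genes or from genes with 20 counts, and with a 99% interval. These minimums and limits keep fewer genes by construction. The share of all genes was not computed at the altered settings, so the counts of members there are descriptions only. Leaving out pancreas genes or Retnlg, the 20-count minimum at the 3-fold threshold and all alternatives of the interval count and of the summed ratio were chosen after seeing the data. No paired analysis was possible because both groups are single pooled libraries.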

Other observations

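Genes of neutrophil release and homing were measured beside the members. Of 8 such genes with 20 counts, 5 were above 1 and 3 below, none met the size rule, and the median log2 ratio was 0.08. Cxcl12, the stromal chemokine gene that retains neutrophils in marrow and spleen, had 2360 counts in APAP and 1413 in ctrl, a ratio of 1.503 (1.41 to 1.61). Cxcl12 thus was higher beyond counting error, while its receptor gene Cxcr4, named here after its value was seen, had 381 counts in APAP and 342 in ctrl (1.003, 0.864 to 1.16).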
